A study of Mus musculus with 7 samples.

Results

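PMX205 treatment was compared with plain drinking water in hippocampal nuclei of Arctic48 mice, a plaque-forming model of Alzheimer's disease. The members were the single-nucleus wells whose mice were labelled Arctic, 12 of the 24 single-nucleus wells and of the 48 wells of the whole series. They held 20962 of the 45138 nuclei that passed the filters. Each well held the nuclei of 1 mouse, so the well was the replicate throughout.

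Arctic mice were hemizygous for a human APP transgene with the Indiana, Swedish and Arctic mutations on a C57BL6/J background, and WT mice were non-transgenic animals of the same cross. PMX205 was given at 20 µg/ml in the drinking water for 12 weeks by the labels, and the mice were killed at 10 months. For the duration, the study's text gives a span of ages that ends at 10 months, and its weight log covers 10 weeks of treatment. The groups were Arc-veh (water) and Arc-PMX (PMX205), with WT-veh and WT-PMX as the corresponding WT groups, 6 wells each, 3 of females and 3 of males. All mice were housed singly. By the labels' treatment protocol all were perfused with actinomycin D and triptolide, which block transcription, before part of the hippocampus was taken. The study's methods instead name perfusion with a salt solution, and name the blockers only for the isolation of microglial cells. Arctic water wells lay in plate rows A and B and Arctic PMX205 wells in rows C and D, so the effects of treatment and plate row cannot be told apart. All Arctic wells were in plate columns 8, 10 and 12 and all WT wells in columns 7, 9 and 11, so genotype and plate column cannot be told apart either.

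Complement is a cascade of plasma and tissue proteins in which C1q, made mostly by microglia in the brain, leads through C4 and C3 to the cleavage of C5. The fragment C5a acts on the receptor C5aR1, which in brain is found mainly on microglia, and promotes inflammatory signalling. PMX205 is a cyclic hexapeptide that blocks C5aR1. Around amyloid plaques, microglia take on a programme marked by Trem2, Itgax and Clec7a, and astrocytes become reactive and raise Gfap and the complement gene C4b.

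The 12 wells yielded 1187 to 2336 nuclei and 4630077 to 23169182 transcripts (unique molecules) each. Arc-PMX F3, the third female well, was the shallowest, with a median of 2561 transcripts per nucleus. The number of nuclei was 1752 ± 434 (SD, n = 6) in Arc-PMX and 1742 ± 342 in Arc-veh, and the median depth was 4979 ± 1842 and 5765 ± 1995 transcripts per nucleus. Neither difference passed an exact two-sided permutation test over the wells (p = 0.965 and 0.468, both 1.0 after adjustment over the 13 single values compared). The smallest p that 6 wells against 6 can give is 0.00217. Levels of Xist and Ddx3y matched the labelled sex in 24 of 24 wells. As a check of the genotype labels, App, whose mouse and transgene transcripts were not separated, lay at 604 to 842 CPM, transcripts per 1000000 of the well, in the Arctic wells and at 494 to 568 in the WT wells, with no overlap. Of 40769 distinct cell barcodes, 4080 occurred in more than one of the 7 sublibraries.

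C5ar1, the target of PMX205, was close to the limit of detection in nuclei. The gene lies on chromosome 7 from 16246743 to 16259540 on the minus strand (GRCm38/mm10). It gave 62 transcripts in all Arctic wells, 39 in Arc-veh and 23 in Arc-PMX, against 5 in WT-veh and 9 in WT-PMX, too few to enter the gene-wise test. Arc-veh F3 alone gave 16 of the 39. Of the 62, 51 were in the 1750 nuclei (8.35% of the Arctic nuclei) with at least 3 transcripts of a set of microglial genes that included Csf1r, Cx3cr1, P2ry12 and Inpp5d, and 4 were in neurons. C5ar1 measured 0.0540, 0.291 and 0.678 CPM (lowest, median and highest of 6 wells) in Arc-PMX and 0.130, 0.438 and 0.993 in Arc-veh (exact permutation p = 0.483, adjusted 1.0). The second C5a receptor gene, C5ar2, gave 83 transcripts, 40 in Arc-veh and 43 in Arc-PMX, of which 70 were in those nuclei. The share of such nuclei was 8.50 ± 1.60% in Arc-PMX and 8.35 ± 1.66% in Arc-veh (exact permutation p = 0.898, adjusted 1.0).

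No gene differed between PMX205 and water in the Arctic wells at this number of mice. With the counts of all nuclei summed per well, 16540 genes were tested with edgeR (quasi-likelihood, sex as covariate), and 0 (0%) had an adjusted p under 0.05. The smallest adjusted p was 0.9998. At an unadjusted p under 0.05 there were 255 genes (1.54%), 98 higher and 157 lower with PMX205, and DESeq2 also called 0 genes, with 246 at an unadjusted p under 0.05. Evenly spread p-values would give a share of 0.05 on average, and the share here was lower, for a reason that was not tested. The median log2 fold change over all genes was 0.00. In 12 genes (0.0726%) the wells of the 2 groups did not overlap, 2 with Arc-PMX above Arc-veh and 10 with Arc-PMX below.

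The precision of this result differed between genes. For 15458 genes (93.5%) the 95% interval of the fold change lay within 2-fold in either direction, and for 11353 (68.6%) it lay within 1.5-fold. Among genes of low level named below, for example, the intervals of C1qb, Trem2, Itgam, Itgax and Clec7a reached beyond 1.5-fold. Those of C3, Rsad2, Fos and Gadd45b reached beyond 2-fold. Those of Inpp5d and Aqp4, at higher levels, also reached beyond 1.5-fold. In sums over a well, fewer cells of a type and less RNA per cell cannot be told apart.

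The genes that mark the response to plaques gave no detectable difference between PMX205 and water. Levels below are given as the lowest, median and highest of the 6 wells. The complement gene C4b measured 45.6, 71.6 and 134 CPM in Arc-veh and 39.4, 83.5 and 120 CPM in Arc-PMX, and its log2 fold change was 0.01 ± 0.26 (SE; 95% interval -0.53 to 0.55). Its WT medians were 7.35 CPM on water and 10.8 CPM on PMX205. The groups of Arctic wells overlapped over almost their whole range, while each lay far above the WT median.

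Complement genes as a list showed the same picture. Of 32 listed, 23 passed the filter on low counts, 16 with a positive and 7 with a negative fold change, with 0 at an unadjusted p under 0.05 and a median log2 fold change of 0.06, beside 0.00 over all genes. C1qb, a chain of the C1q complex that starts the classical pathway, measured 0.737, 2.27 and 3.88 CPM in Arc-veh and 1.92, 2.65 and 5.11 CPM in Arc-PMX, a log2 fold change of 0.23 ± 0.30. C3, the central component, measured 0.570, 1.53 and 2.76 CPM on water and 0.826, 1.51 and 5.59 CPM on PMX205, a log2 fold change of 0.42 ± 0.40. Itgam, the alpha chain of complement receptor 3, was at 6.27, 9.99 and 16.3 CPM and at 10.1, 12.0 and 20.2 CPM, a log2 fold change of 0.30 ± 0.23. In all 3 the wells of the groups overlapped. The list's most abundant member was Csmd1, a neuronal complement inhibitor, at 5413, 5948 and 6598 CPM on water and 4422, 5561 and 6770 CPM on PMX205 (log2 fold change -0.11 ± 0.09).

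Against WT, 12 of these 23 complement genes were higher in Arctic wells on water and 10 on PMX205 at an adjusted p under 0.05 (edgeR). The median log2 differences between the genotypes were 0.90 on water and 0.40 on PMX205. The median log2 fold change of PMX205 against water over these genes was 0.18 in WT wells and 0.06 in Arctic wells. Over all genes 3.91% were called between the genotypes on water and 3.00% on PMX205. These comparisons share the Arctic wells with the treatment comparison, so their values are given side by side only.

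**Figure D1:**
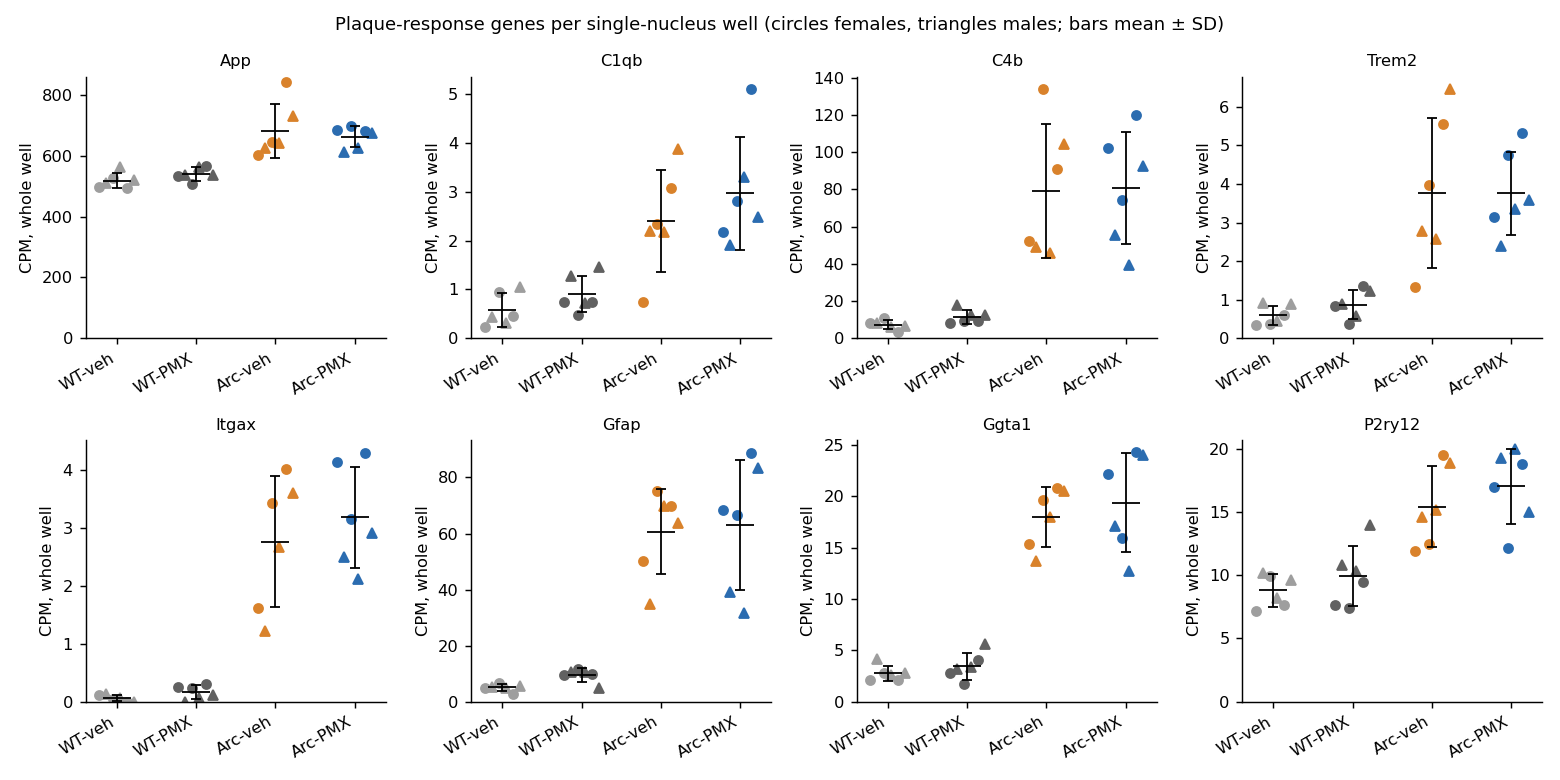
Levels (CPM of the whole well) of App and 7 genes of the plaque response in each of the 24 single-nucleus wells, by group; circles are females, triangles males, and bars the mean ± SD of 6 wells. C4b, Itgax, Gfap and Ggta1 lie above every WT well in both Arctic groups, and the Arc-PMX wells overlap the Arc-veh wells in every panel.

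Microglial genes gave no called difference in any of 3 lists. The homeostatic list, 12 genes of resting microglia, had 10 positive fold changes and a median of 0.20. P2ry12, a nucleotide receptor of resting microglia, measured 11.9, 14.9 and 19.6 CPM in Arc-veh and 12.2, 17.9 and 20.0 CPM in Arc-PMX (log2 fold change 0.13 ± 0.14). Inpp5d, a phosphatase that restrains receptor signalling, measured 28.2, 40.0 and 73.2 CPM on water and 47.9, 52.4 and 92.8 CPM on PMX205, the highest value in the shallow well Arc-PMX F3 (log2 fold change 0.33 ± 0.24). The groups overlapped in each.

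The plaque-associated programme was split into a first stage of 11 tested genes, with a median log2 fold change of 0.11, and a second stage of 14, with a median of 0.12. The medians were 0.22 and 0.24 in females and -0.01 and 0.01 in males, a difference not tested for lists. Trem2, the lipid-sensing receptor that the second stage depends on, measured 1.33, 3.37 and 6.46 CPM in Arc-veh and 2.40, 3.48 and 5.31 CPM in Arc-PMX, a log2 fold change of -0.05 ± 0.29. Itgax, a beta-2 integrin chain, was at 1.22, 3.05 and 4.02 CPM and at 2.12, 3.02 and 4.29 CPM, a log2 fold change of 0.14 ± 0.26, with WT medians of 0.0517 CPM on water and 0.176 CPM on PMX205. Clec7a, a pattern-recognition receptor, was at 0.961, 2.13 and 3.78 CPM on water and 1.92, 2.97 and 3.68 CPM on PMX205, a log2 fold change of 0.22 ± 0.28. The water wells reached lower than the PMX205 wells in these 3 genes, and the groups overlapped in each. Apoe, a lipid carrier made by astrocytes and by activated microglia, had a median of 20.4 CPM in both groups.

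Between the genotypes, 9 of the 12 homeostatic, 9 of the 11 first-stage and 10 of the 14 second-stage genes were higher in Arctic wells on water. On PMX205 the numbers were 8, 8 and 10. The median differences on water were 1.07, 1.59 and 1.28 on the log2 scale, and on PMX205 they were 1.04, 1.34 and 1.38. For PMX205 against water, the medians were 0.19, 0.54 and 0.21 in WT wells and 0.20, 0.11 and 0.12 in Arctic wells. No member of the 3 lists was lower in Arctic wells in either comparison.

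Reactive astrocyte genes gave no called difference either. Gfap, the intermediate filament of reactive astrocytes, measured 34.9, 66.9 and 75.2 CPM in Arc-veh and 31.7, 67.5 and 88.9 CPM in Arc-PMX, a log2 fold change of 0.03 ± 0.21 (95% interval -0.40 to 0.46), beside WT medians of 5.12 CPM on water and 10.2 CPM on PMX205. The 9 pan-reactive genes tested had a median log2 fold change of 0.04 (0.23 in females and -0.16 in males), the 9 A-1 genes 0.05 and the 7 A-2 genes -0.22, with 0 of these at an unadjusted p under 0.05. Ggta1, a galactosyltransferase of the A-1 list, measured 13.7, 18.8 and 20.8 CPM on water and 12.7, 19.7 and 24.3 CPM on PMX205 (log2 fold change 0.10 ± 0.19). Aqp4, the water channel of astrocyte endfeet, was at 12.96, 18.8 and 27.4 CPM and at 16.9, 21.6 and 37.5 CPM (log2 fold change 0.32 ± 0.20).

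Of the pan-reactive genes, 8 of 9 were higher in Arctic than in WT wells on water, with a median difference of 1.99, and 9 of 9 on PMX205, with a median of 1.52. Their median log2 fold change of PMX205 against water was 0.51 in WT wells and 0.04 in Arctic wells. The difference between the PMX205 effects in Arctic and in WT mice had an unadjusted p of 0.0136 for Gfap, whose log2 fold change in WT was 0.89, and an adjusted p of 1 (edgeR).

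Interferon response genes had a median log2 fold change of -0.03 over the 13 tested, 5 positive and 8 negative. Rsad2, an antiviral effector, measured 0.712, 0.969 and 1.62 CPM in Arc-veh and 0.575, 1.32 and 1.95 CPM in Arc-PMX (log2 fold change 0.50 ± 0.30). Rnf213, an interferon-induced ubiquitin ligase, was at 18.5, 24.6 and 53.2 CPM on water and 17.6, 26.3 and 45.4 CPM on PMX205 (log2 fold change -0.03 ± 0.24). Between the genotypes, 10 of the 13 were higher in Arctic wells on water and 9 on PMX205.

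**Figure D2:**
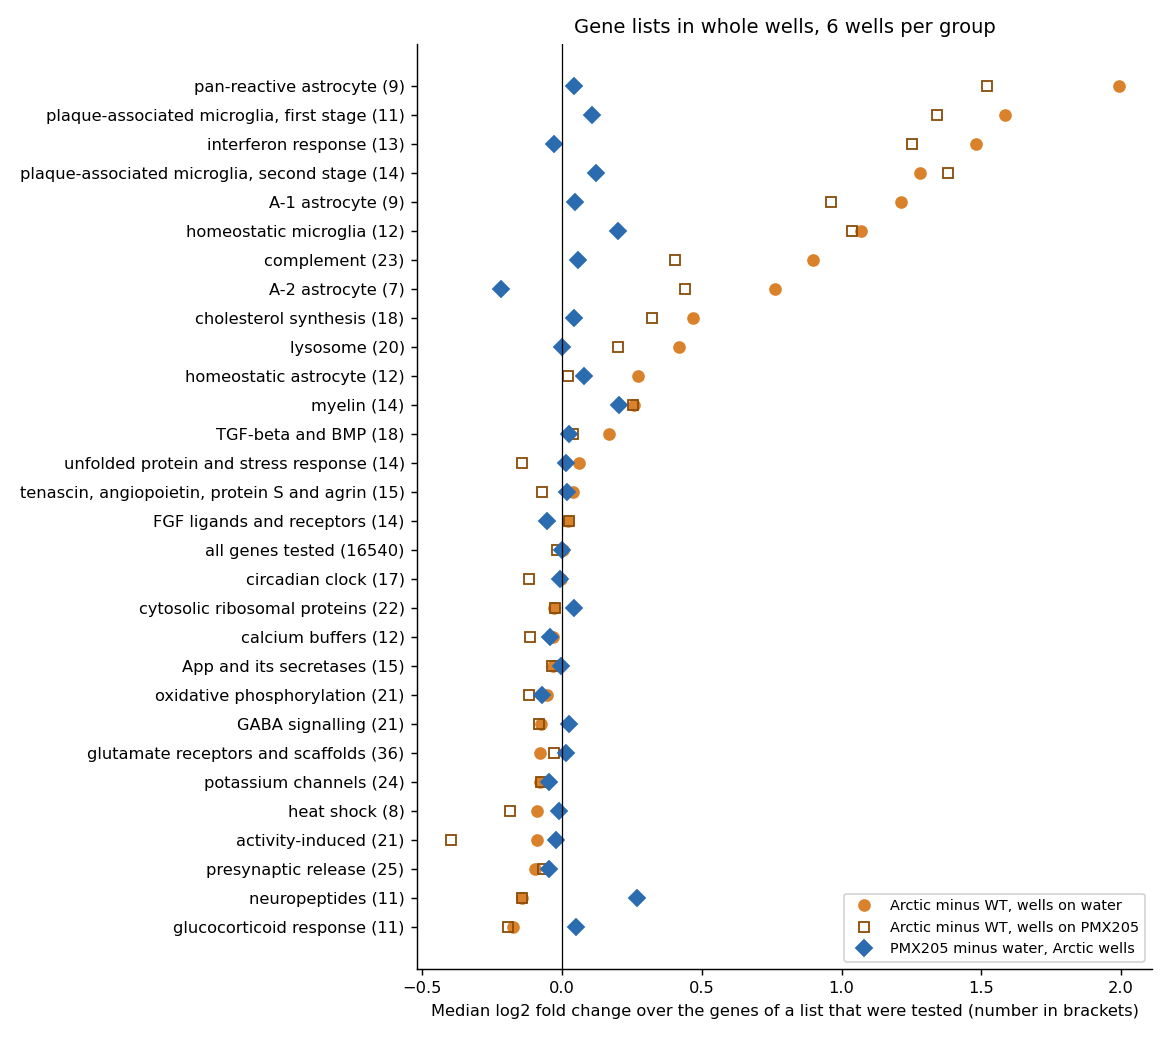
Median log2 fold change of gene lists in whole wells, with the number of its genes tested in brackets, for Arctic minus WT on water, Arctic minus WT on PMX205 and PMX205 minus water in Arctic wells. The treatment medians of the lists plotted, which leave out the cell type markers, lie between -0.22 and 0.27, while the genotype medians on water reach 1.99 for pan-reactive astrocyte genes.

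Most genes higher in Arctic than in WT wells on water were also higher on PMX205, and the genes lower on water mostly did not pass there. Of the 574 genes higher in Arc-veh than in WT-veh, 571 (99.5%) were also higher in Arc-PMX than in WT-PMX, which are other wells, and 425 (74.0%) passed the test there. Their median log2 difference was 1.31 in the water wells, which chose them, and 1.24 in the PMX205 wells. Of the 73 genes lower in Arc-veh, 67 (91.8%) had the same sign on PMX205 and 1 passed, with medians of -0.39 and -0.14. A test of the difference between the PMX205 effects in Arctic and WT mice called 0 of 16540 genes (edgeR, 387 at an unadjusted p under 0.05; DESeq2 also 0, with 387).

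Other pathways gave no called gene either. Lysosomal genes, 20 tested, had a median log2 fold change of 0.00, and the 18 genes of cholesterol synthesis one of 0.04. The 21 subunits of oxidative phosphorylation had 6 positive and 15 negative values with a median of -0.07, and Cox8a, a subunit of cytochrome c oxidase, was the one at an unadjusted p under 0.05 (4.62, 5.72 and 8.23 CPM on water, 3.27, 4.77 and 5.37 CPM on PMX205, log2 fold change -0.34 ± 0.16). Stress response, heat shock and circadian clock genes had medians of 0.01, -0.01 and -0.01.

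Among 15 genes of App and its secretases the median was 0.00, and App itself was at 604, 644 and 842 CPM in Arc-veh and 612, 679 and 699 CPM in Arc-PMX, a log2 fold change of -0.04 ± 0.07. Growth factor signalling was described by 14 FGF ligands and receptors, 18 TGF-beta and BMP genes and 15 genes of tenascins, angiopoietins, protein S and agrin, with medians of -0.06, 0.03 and 0.02. Lrp4, the agrin receptor, had an unadjusted p of 0.0412 by edgeR (14.4, 16.2 and 18.7 CPM against 16.8, 18.9 and 23.5 CPM, log2 fold change 0.26 ± 0.12).

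Of the lists in whole wells, myelin genes and neuropeptides had the highest medians among those with over 5 genes. All 14 myelin genes had positive fold changes, from 0.01 to 0.31 with a median of 0.20. Mbp, the basic protein of compact myelin, measured 170, 214 and 270 CPM in Arc-veh and 227, 255 and 371 CPM in Arc-PMX, a log2 fold change of 0.27 ± 0.13 (edgeR unadjusted p = 0.0415). Its highest value came from Arc-PMX F3. The median of the list was 0.13 without Arc-PMX F3 and 0.13 without Arc-veh M2, each with 0 genes at an unadjusted p under 0.05. The WT mice had a median of 0.28 over the same genes. The 11 neuropeptide genes had a median of 0.27, which was 0.65 in females and -0.16 in males.

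Immediate early and other activity-induced genes gave 10 positive and 11 negative values, with a median of -0.02. Fos, a transcription factor induced within minutes of neuronal firing, measured 1.14, 1.88 and 3.29 CPM on water and 1.60, 4.30 and 7.77 CPM on PMX205, a log2 fold change of 0.95 ± 0.37 (edgeR unadjusted p = 0.0154, adjusted 1). Gadd45b, a stress and activity gene, was at 0.739, 0.969 and 1.5 CPM and at 0.295, 0.588 and 1.15 CPM, a log2 fold change of -0.72 ± 0.35. The groups overlapped in both genes.

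Choroid plexus markers varied widely between mice of both groups. The 4 markers had negative fold changes with a median of -0.72, and none had an unadjusted p under 0.05. The median was -0.33 without Arc-veh F3 and -1.22 without Arc-PMX F2, and it was -0.90 in females alone and -0.31 in males alone. Ttr, the transthyretin made by the choroid plexus, was at 17.8, 0.163, 26.2, 1.73, 51.3 and 45.4 CPM in Arc-veh wells F1, M1, F2, M2, F3 and M3, and at 1.68, 23.2, 37.2, 1.30, 1.23 and 1.03 CPM in the Arc-PMX wells in the same order. Wells of a high and a low level occurred in both groups, 4 of 6 and 2 of 6.

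The 12 whole-well genes of smallest unadjusted p, 6 in each direction at a mean of at least 3 on the log2 CPM scale, were ranked and not called. Dtx2, a Deltex E3 ubiquitin ligase of the Notch pathway on chromosome 5 (135994800 to 136032872, plus strand), measured 11.6, 12.8 and 14.0 CPM in Arc-veh and 6.84, 9.80 and 10.8 CPM in Arc-PMX. Its log2 fold change was -0.43 ± 0.12 (edgeR unadjusted p = 0.00149, adjusted 1), and all 6 wells on PMX205 lay below all 6 on water. The WT mice had a log2 fold change of 0.11.

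The genes ranked higher with PMX205 differed by less than 1.5-fold. Slc12a8, a transporter of the cation-chloride cotransporter family on chromosome 16 (33517328 to 33664135, plus strand), measured 6.76, 7.24 and 10.3 CPM on water and 8.85, 10.5 and 14.4 CPM on PMX205, a log2 fold change of 0.48 ± 0.16 (edgeR unadjusted p = 0.00512). Rerg, a Ras-like protein, was at 46.3, 58.4 and 67.3 CPM and at 54.9, 70.1 and 96.6 CPM, a log2 fold change of 0.31 ± 0.11. Fgf1, a secreted growth factor that binds all FGF receptors, was at 12.5, 14.2 and 17.3 CPM and at 15.3, 17.7 and 20.6 CPM, a log2 fold change of 0.30 ± 0.11. All 3 overlapped between the groups. Sv2c, a synaptic vesicle glycoprotein, Tprkb, a subunit of a tRNA-modifying complex, and the lincRNA Gm32834 followed with log2 fold changes of 0.28, 0.29 and 0.28.

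On the lower side, Ccn3, a matricellular protein, measured 9.70, 12.5 and 17.2 CPM on water and 7.58, 9.74 and 12.2 CPM on PMX205 (log2 fold change -0.40 ± 0.15). Pla2g12a, a secreted phospholipase, was at 9.23, 10.4 and 12.8 CPM and at 6.23, 8.42 and 9.22 CPM (log2 fold change -0.35 ± 0.14), and its groups did not overlap. The unnamed genes 9530077C05Rik and 1700019D03Rik had log2 fold changes of -0.28 and -0.34.

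AY036118, a lincRNA on chromosome 17 (39847113 to 39848035, minus strand) that is commonly counted from reads of ribosomal RNA, had the largest fold change of the ranked genes and rested on single wells. It measured 9269 CPM in Arc-veh M1 and 2384 CPM in Arc-veh F3, and 253 to 325 CPM in the other 4 Arc-veh wells, against 189, 246 and 638 CPM in Arc-PMX. The log2 fold change was -2.78 ± 0.71 (edgeR unadjusted p = 0.000639, adjusted 1). The medians, 304 and 246 CPM, were close. Cmss1, another of the 8 genes listed as linked to ribosomal RNA, peaked instead in Arc-veh F1 at 6210 CPM and in Arc-PMX F3 at 3505 CPM. With the transcripts linked to ribosomal RNA removed, or with Arc-veh F3 and M1 left out together, 0 genes were called.

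**Figure D3:**
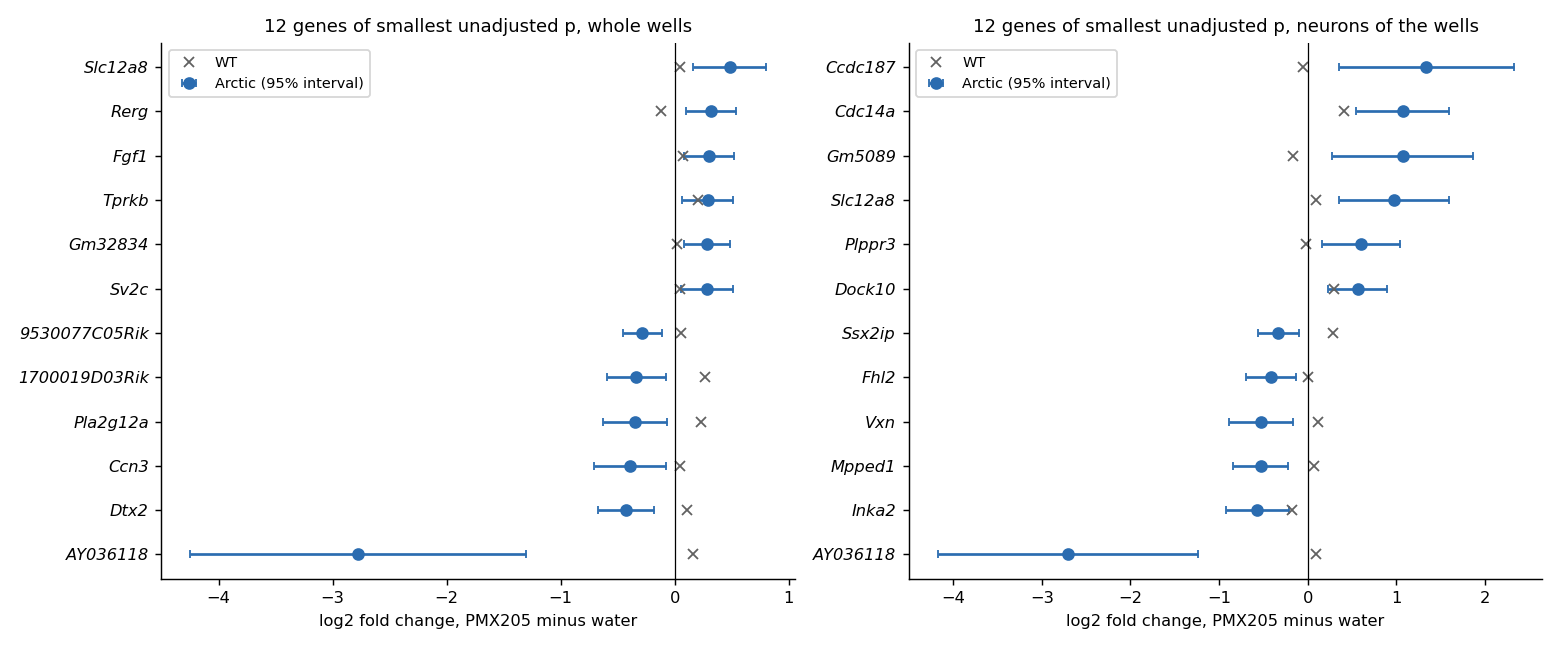
Log2 fold change of PMX205 against water in Arctic wells, with 95% intervals, for the 12 genes of smallest unadjusted p in whole wells (left) and in neurons (right); crosses give the WT fold change. Each interval excludes 0 because p chose the genes, and none of the 24 passed the adjusted threshold.

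Neurons were taken as nuclei with at least 2000 transcripts and at least 3 transcripts of Slc17a7, Slc17a6, Gad1 and Gad2 together, the first pair being vesicular glutamate transporters and the second pair the enzymes that make GABA. This rule found 3244 neurons (15.5% of the Arctic nuclei), 88 to 471 per well, of 6607 in all 24 wells. Of the 3244, the neuronal marker Snap25 was detected in 98.6% and Rbfox3 in 97.2%. The rule selected deep and GABAergic nuclei, with a median of 15120 transcripts against 4615 over all Arctic nuclei. Of the neurons, 49.2% held at least 3 Gad1 and Gad2 transcripts and 44.6% at least 3 of the glutamate transporters. Snap25 was also detected in 50.6% of the nuclei outside the rule. Mbp, an oligodendrocyte transcript, was detected in 49.3% of the neurons and in 42.4% of the other nuclei. The astrocyte marker Slc1a2 was detected in 62.5% and 47.1%, and the microglial marker Csf1r in 3.05% and 6.72%. These shares were not adjusted for depth.

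Nuclei that met this rule made up 15.3 ± 6.10% (SD, n = 6) of the nuclei in Arc-PMX and 15.6 ± 4.37% in Arc-veh (exact permutation p = 0.918, adjusted 1.0). This is not the full share of neurons, which by the study's clusters were the majority in its single-nucleus samples. With at least 2000 transcripts and 1 marker transcript, the share was 37.6 ± 7.39% in Arc-PMX and 38.9 ± 5.84% in Arc-veh (exact permutation p = 0.732). The share with at least 3 Gad1 and Gad2 transcripts was 56.5 ± 14.9% of neurons in Arc-PMX and 47.5 ± 16.2% in Arc-veh, and Prox1, the transcription factor of dentate granule neurons, reached 3 transcripts in 14.4 ± 8.77% and 15.4 ± 8.25% of neurons. Neither differed beyond the spread between wells (exact permutation p = 0.329 and 0.844, both adjusted to 1.0).

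**Figure D4:**
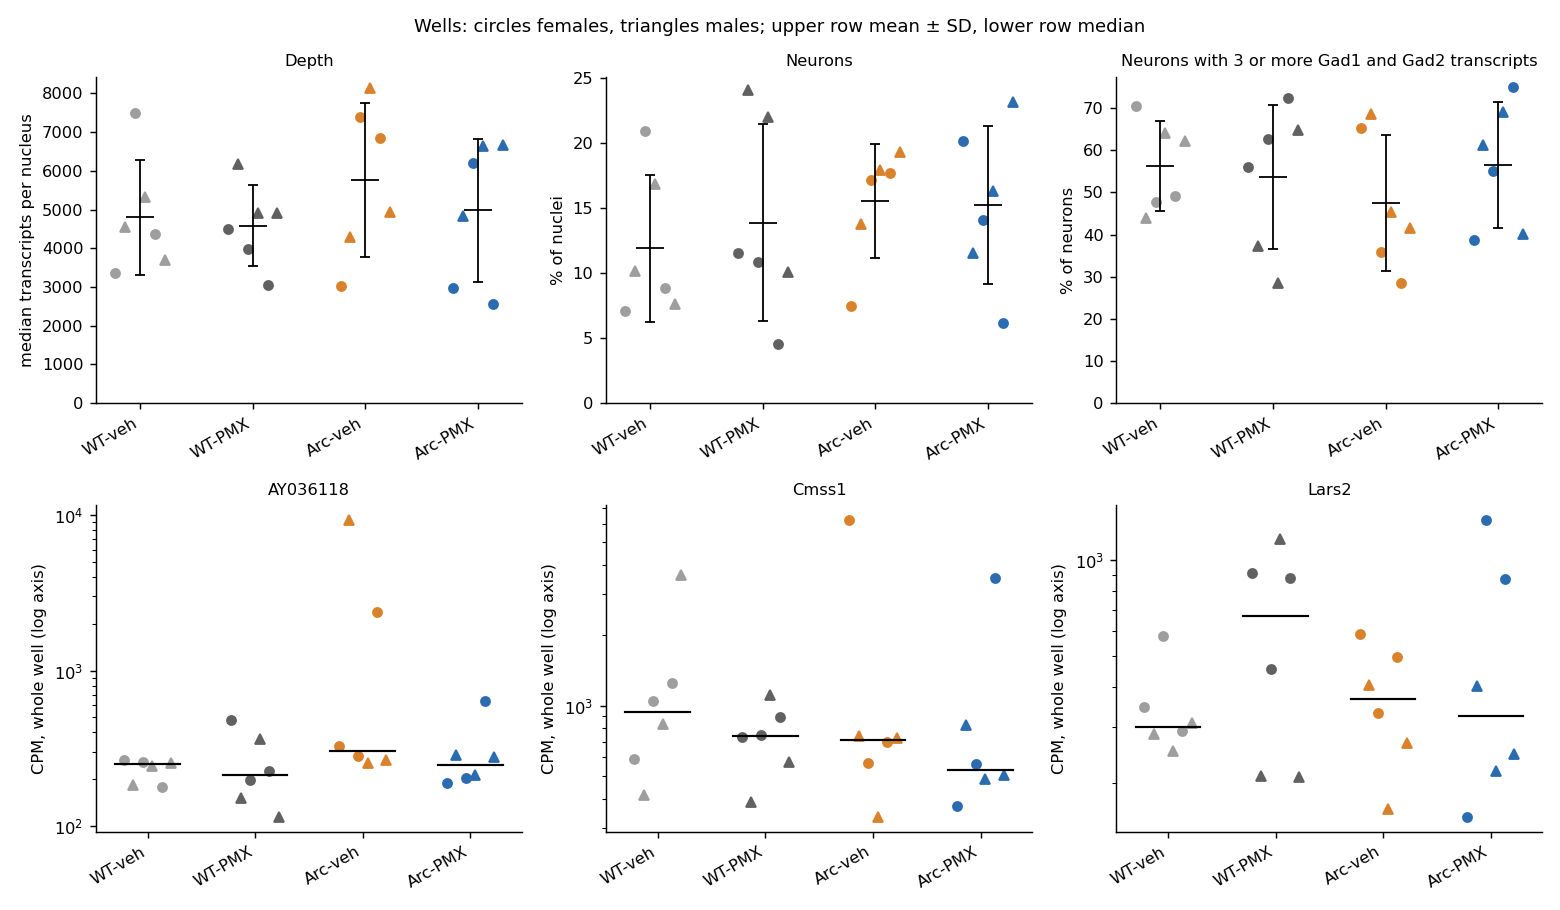
Upper row, per well and group: median transcripts per nucleus, neurons that met the rule as a percent of nuclei, and the percent of these neurons with 3 or more Gad1 and Gad2 transcripts, with mean ± SD of 6 wells. Lower row, on log axes with medians: CPM of AY036118, Cmss1 and Lars2, 3 genes linked to ribosomal RNA, of which AY036118 reaches 9269 CPM in 1 Arc-veh well.

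In neurons, too, no gene passed the test at this number of mice. Of 12744 genes, 0 (0%) had an adjusted p under 0.05 (edgeR; smallest 0.9998), and DESeq2 called 0. At an unadjusted p under 0.05 there were 314 (2.46%) by edgeR, 140 higher and 174 lower, and 346 by DESeq2, again below a share of 0.05. Groups of wells did not overlap in 8 genes (0.0628%), 4 in each direction. The 95% interval lay within 2-fold for 11453 genes (89.9%) and within 1.5-fold for 7802 (61.2%).

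Synaptic genes gave no called difference in neurons. The 36 glutamate receptor and scaffold genes had a median log2 fold change of -0.02, with 0 at an unadjusted p under 0.05, and the 21 genes of GABA signalling one of 0.01. The GABA list holds Gad1 and Gad2, which the neuron rule used. Gria1, the GluA1 subunit of AMPA receptors, measured 3789, 4470 and 5410 CPM in Arc-veh and 3805, 4214 and 4580 CPM in Arc-PMX (log2 fold change -0.12 ± 0.08). Dlg2, the scaffold PSD-93, was at 6214, 7013 and 7967 CPM and at 5357, 6798 and 8769 CPM (log2 fold change -0.05 ± 0.11). Gabrg1, a GABA-A receptor subunit, had the widest difference of the GABA list, with 5.70, 13.2 and 38.7 CPM on water and 10.0, 36.8 and 48.1 CPM on PMX205 (log2 fold change 1.03 ± 0.46, edgeR unadjusted p = 0.0331).

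Presynaptic and potassium channel genes had more negative than positive values, 20 of 25 and 19 of 24, with medians of -0.10 and -0.06 against -0.01 over all genes. Kcna2, an axonal voltage-gated channel, was at 19.6, 25.6 and 28.1 CPM and at 8.86, 18.9 and 21.8 CPM (log2 fold change -0.40 ± 0.14, edgeR unadjusted p = 0.0085). Kcnma1, the large-conductance calcium-activated channel, was at 1712, 1913 and 2173 CPM and at 1495, 1717 and 1757 CPM (log2 fold change -0.19 ± 0.09). The wells on PMX205 reached lower in both channel genes, and the groups overlapped. Without Arc-PMX F3, whose 88 neurons were the fewest and which was lowest for Kcna2, the medians of the lists were -0.05 for presynaptic release and -0.07 for potassium channels. Without other single wells the potassium channel median ranged from -0.12 (without Arc-PMX F1) to -0.03 (without Arc-PMX M1), and it was -0.09 without Arc-veh F1 or F3. It was -0.02 in females and -0.13 in males, and the presynaptic median was -0.14 in females and -0.05 in males. In neurons of at least 4000 transcripts and 6 marker transcripts the medians were -0.17 for presynaptic release and -0.15 for potassium channels, and in the broader set, with at least 2000 transcripts and 1 marker transcript, they were -0.07 and -0.05. The oligodendrocyte and microglial markers had medians of 0.997 and 0.77 in the same sums. Their part in the result was not tested.

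Activity-induced genes had 3 positive and 13 negative values in neurons, with a median of -0.14, and 0 at an unadjusted p under 0.05. Bdnf, a neurotrophin released with activity, measured 2.83, 19.9 and 26.7 CPM on water and 4.43, 8.95 and 20.9 CPM on PMX205 (log2 fold change -0.57 ± 0.31). Its log2 fold change was 0.16 in females and -1.25 in males. Homer1, a postsynaptic scaffold with an activity-induced short form, was at 146, 159 and 193 CPM and at 75.3, 180 and 193 CPM (log2 fold change -0.02 ± 0.16).

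CA1 pyramidal neuron markers had the lowest median of the lists of over 5 genes in neurons, -0.53 over 7 genes, 3 of them at an unadjusted p under 0.05. In whole wells the same 7 genes had a median of -0.09, 3 positive and 4 negative. Mpped1, a marker of CA1 and upper cortical layers on chromosome 15 (83779467 to 83858494, plus strand), measured 109, 125 and 155 CPM in Arc-veh and 63.5, 93.6 and 110 CPM in Arc-PMX. Its log2 fold change was -0.53 ± 0.15, -0.53 in females and -0.54 in males (edgeR unadjusted p = 0.00138, adjusted 1). Fibcd1, a receptor enriched in CA1, was at 6.27, 18.6 and 24.9 CPM and at 4.68, 8.40 and 17.1 CPM (log2 fold change -0.71 ± 0.29). Of the 7 markers 5 were negative and 2 positive, Wfs1 at 0.26 ± 0.25 and Man1a at 0.09 ± 0.19, both named with their values known. The summed level of the 7 markers overlapped widely, 2461, 2945 and 4474 CPM on water and 1941, 2863 and 3299 CPM on PMX205.

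The dentate granule list had a median of 0.12 over 7 genes, which was 0.40 in females and -0.09 in males. Dock10, a guanine nucleotide exchange factor high in granule neurons, measured 221, 301 and 330 CPM in Arc-veh and 286, 428 and 533 CPM in Arc-PMX (log2 fold change 0.56 ± 0.16, edgeR unadjusted p = 0.00183), while Prox1 was at 24.6, 62.4 and 83.5 CPM and at 39.6, 63.3 and 107 CPM (log2 fold change 0.17 ± 0.30). The CA1 median was -0.32 without Arc-veh M2, -0.33 over the 5 genes tested in neurons of at least 4000 transcripts and 6 marker transcripts, 1 of them higher and 1 lower at an unadjusted p under 0.05, and -0.35 over the 6 tested in females alone. With the share of neurons that held at least 3 Gad1 and Gad2 transcripts as a further covariate it was -0.48 and 2 of 7 genes had an unadjusted p under 0.05, and in the broader set of neurons, with at least 2000 transcripts and 1 marker transcript, the median was -0.18.

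Myelin genes showed the highest neuronal median of any list with over 5 genes. All 13 tested were positive, from 0.24 to 1.33, with a median of 0.89 and 2 at an unadjusted p under 0.05. Mag, a myelin adhesion protein of oligodendrocytes, measured 1.68, 5.24 and 17.1 CPM in Arc-veh and 7.95, 15.3 and 65.0 CPM in Arc-PMX (log2 fold change 1.33 ± 0.58, edgeR unadjusted p = 0.0293, adjusted 1). The well at 65.0 CPM was Arc-PMX F3, and the next was at 17.5. The summed level of the 4 oligodendrocyte markers, Mbp among them, moved with this list, at 73.8, 107 and 258 CPM on water and 133, 230 and 609 CPM on PMX205. Microglial markers were also present in these neurons, 26.8, 40.1 and 111 CPM against 47.9, 84.3 and 359 CPM in sum, with 5 of 5 tested markers positive. The part of transcripts from other cells in these values was not tested. Without 1 well the myelin median ranged from 0.60 (without Arc-veh M2, 0 genes at an unadjusted p under 0.05) to 1.46 (without Arc-veh F3, 7 genes), and without Arc-PMX F3 it was 0.72 with 0 genes. With the Gad1 and Gad2 share as a covariate it was 0.64 with 0 genes, and in neurons of at least 4000 transcripts and 6 marker transcripts it was 1.61 over 7 genes.

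**Figure D5:**
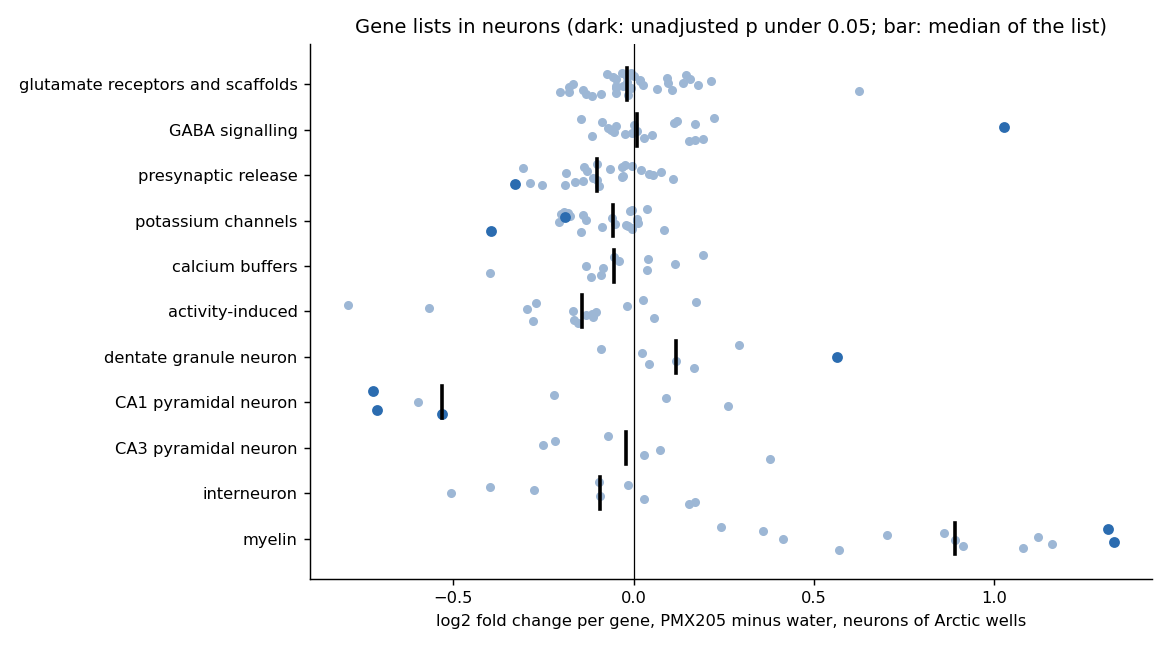
Log2 fold change of PMX205 against water for each tested gene of 11 lists in the neurons of Arctic wells; dark points have an unadjusted p under 0.05 and black bars are list medians. Myelin genes lie wholly on the positive side with a median of 0.89, and CA1 markers have a median of -0.53.

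Of the 12 ranked neuronal genes, Cdc14a, a dual-specificity phosphatase on chromosome 3 (116272553 to 116424032, minus strand), had the smallest unadjusted p on the higher side. It measured 2.83, 4.70, 6.08, 2.84, 4.31 and 10.3 CPM in Arc-veh wells F1, M1, F2, M2, F3 and M3, and 9.36, 12.4, 13.02, 13.6, 11.8 and 8.01 CPM in the Arc-PMX wells in that order. The log2 fold change was 1.07 ± 0.26 (edgeR unadjusted p = 0.00029, adjusted 1), and Arc-veh M3 alone reached into the range of the PMX205 wells. In WT mice the log2 fold change was 0.40.

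Slc12a8 ranked in neurons as in whole wells, at 7.41, 7.93 and 15.1 CPM on water and 12.0, 18.9 and 23.6 CPM on PMX205 (log2 fold change 0.97 ± 0.30). Plppr3, a phospholipid phosphatase-related membrane protein of growing axons, was at 7.41, 11.0 and 14.2 CPM and at 12.98, 16.3 and 20.3 CPM (log2 fold change 0.60 ± 0.21). Ccdc187 and the antisense transcript Gm5089 had log2 fold changes of 1.34 and 1.07 from levels under 25 CPM. On the lower side Inka2, an inhibitor of the kinase Pak4, measured 26.7, 28.7 and 42.6 CPM on water and 12.98, 21.7 and 28.3 CPM on PMX205 (log2 fold change -0.57 ± 0.17). Fhl2, Vxn and Ssx2ip had log2 fold changes of -0.41, -0.53 and -0.33. AY036118 had one of -2.71 that rested again on Arc-veh M1, at 8556 CPM, and Arc-veh F3, at 2323 CPM.

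Females and males were compared because the study followed memory by sex. The difference between their PMX205 effects passed in 0 of 16540 genes in whole wells (edgeR, 495 at an unadjusted p under 0.05; DESeq2 0, with 460) and in 0 of 12744 in neurons (edgeR 343; DESeq2 0, with 221). Within females 0 genes were called at either level, and within males 1 was called, in neurons. That gene was Atp10b, a phospholipid-transporting ATPase on chromosome 11 (43149877 to 43262285, plus strand), named because it was called within males.

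In males Atp10b measured 6.59, 6.45 and 7.41 CPM in the 3 Arc-veh wells and 1.77, 0.851 and 1.14 CPM in the 3 Arc-PMX wells. It fell by 2.51 on the log2 scale (SE 0.42, edgeR adjusted p = 0.0469). The neuron sums of the 3 male Arc-PMX wells held 2264665, 5010256 and 5229234 transcripts, so their levels rest on few transcripts of Atp10b. In females it measured 0.944, 1.33 and 2.07 CPM on water and 3.15, 2.25 and 5.91 CPM on PMX205, a log2 fold change of 0.95 ± 0.44. The difference between the sexes had an adjusted p of 0.111 in edgeR and did not pass. The 2 male groups did not overlap, but the female wells on water were as low as the male wells on PMX205. Males lay in plate rows B (water) and D (PMX205) and females in rows A and C, so plate row cannot be told apart from the combination of sex and treatment. Atp10b was the only gene called by edgeR among the treatment effects and their differences, and the adjustment did not span these comparisons.

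In WT mice PMX205 also gave 0 called genes, with 648 at an unadjusted p under 0.05 in whole wells and 316 in neurons (edgeR). The difference between the genotypes in the PMX205 effect on neurons called 0 of 12744 genes (edgeR, 337 at an unadjusted p under 0.05; DESeq2 0, with 328). Arctic and WT neurons themselves differed in 0 genes on water (600 at an unadjusted p under 0.05) and 0 on PMX205 (297) by edgeR, and in 3 and 4 genes by DESeq2. Of the 14 tested genes of App and its secretases, edgeR called 0 in neurons in either comparison, against 1 of 15 in whole wells. The 0 calls in neurons therefore do not show that nothing changed there.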

How the data were processed

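Parts of the hippocampi of 24 mice, 1 mouse per well, gave nuclei for split-pool (Parse Evercode) single-nucleus RNA-seq in 7 sublibraries. The authors aligned the reads to mm10 with split-pipe and deposited raw transcript counts per gene and barcode, together with a sheet that gives each well's genotype, treatment and sex. All 55536 gene identifiers matched GENCODE vM21, from which coordinates were read.

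Barcodes with over 300 and under 50000 transcripts, over 400 genes and under 1% mitochondrial transcripts were kept, as in the study. Suspected doublets (487 Arctic nuclei by Scrublet in scanpy 1.11.5) were kept in the main result and removed in an alternative. Counts were summed per well over all kept nuclei, and over neurons by the rule given in the report. Wells held 4630077 to 23169182 transcripts in the Arctic groups, and neuron sums 615672 to 12009940. Genes were filtered with filterByExpr and tested in edgeR 4.0.16 (TMM, quasi-likelihood, R 4.3.3) in 1 fit of 4 groups of 6 wells with sex as covariate, with Benjamini-Hochberg adjustment at 0.05. DESeq2 1.42.0 was an alternative. Single values per well were compared by exact two-sided permutation tests (Python 3.11.15). The scripts were tested on simulated data. CPM of single genes use TMM library sizes, except C5ar1. CPM of C5ar1 and of summed lists use the total transcripts of the well or of its neurons. No CPM are divided by gene length.

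Named genes were those called, the 6 in each direction of smallest unadjusted p at a mean log2 CPM of at least 3, and up to 4 per list, 2 of highest level and 2 of smallest unadjusted p. Genes of the plaque response, cell markers and Atp10b were named beyond this rule with their values known. The members and gene lists were chosen with earlier results of these data known. The study's own cell clusters were not used here. The study left out 1 WT sample as Arctic without naming its well, and all 24 wells were used here. Replicate numbers on the plate were shared between groups, but correlations over 0.1 between same-numbered wells were seen in only 3 of 6 pairs at each level, so the fit had no replicate block. The mitochondrial share was 0.0173 to 0.0281% of transcripts in the Arctic wells numbered 2 and 0.0358 to 0.103% in the other Arctic wells. Plate column, which same-numbered wells shared within a genotype, was not modelled, so any spread between columns stayed in the error of the tests. Values of some single genes are not reported here.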

Additional observations from a re-analysis of the deposited data

Results flagged for a closer look

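In 27 of 234 groups of 6 wells tested, the highest or lowest well stood apart from the others by Dixon's criterion at 95%, where chance gives about 1 in 20, or 11.7. Of these, 13 were in the shallowest well, Arc-PMX F3. No effect differed between Arctic and WT mice or between the sexes by its own adjusted test.

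Arc-PMX F3 was highest in whole wells for Gm32834 (27.0 CPM), AY036118 (638 CPM), Itgam (20.2 CPM), Inpp5d (92.8 CPM), Cd44 (31.5 CPM), Mbp (371 CPM) and Cmss1 (3505 CPM). In neurons the same well was highest for AY036118 (713 CPM), Aplp2 (139 CPM), Mbp (279 CPM), Mag (65.0 CPM) and Aspa (31.0 CPM), and lowest for Kcna2 (8.86 CPM).

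Arc-veh M1 was highest for AY036118 in whole wells (9269 CPM) and in neurons (8556 CPM), for Gm42418 (9495 CPM) and Cox8a (8.23 CPM) in whole wells and for Ccdc187 in neurons (17.6 CPM), and lowest for Vxn in neurons (22.6 CPM). Arc-veh M3 was highest for the mitochondrial share of transcripts (0.103%), for Ctsb in whole wells (42.7 CPM) and for Fhl2 in neurons (59.7 CPM). Arc-veh F1 was highest for Cmss1 (6210 CPM) and Rsad2 (1.62 CPM) in whole wells.

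In single wells of the PMX205 group, Dtx2 was lowest in Arc-PMX M2 (6.84 CPM) and Gas6 highest in Arc-PMX F2 (46.1 CPM) in whole wells, and Stxbp6 was highest in Arc-PMX F1 (251 CPM) in neurons.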

How the results depend on the processing

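The count of genes changed by PMX205 in Arctic wells was 0 in 27 of 28 settings for whole wells and in 30 of 32 for neurons. These included leaving out each well in turn, which gave 0 to 0 called genes at both levels (209 to 458 at an unadjusted p under 0.05 in whole wells and 227 to 475 in neurons), DESeq2 and the removal of doublets. The exceptions were edgeR without the filter on low counts, which called 28 genes in whole wells and 85 in neurons, and males alone, which called 1, Atp10b, in neurons. Without the filter the fit's prior degrees of freedom went from 6.70 to 499 in whole wells and from 6.99 to infinite in neurons. Of the 28 and 85 genes, 24 and 80 had been tested with the filter, where their smallest adjusted p was 0.9998 (5 of the 85 were myelin genes), and DESeq2 without the filter called 0 (an alternative chosen after seeing the data).

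Also without the filter, the PMX205 effect differed between Arctic and WT in 8 genes of whole wells and 32 of neurons, and between the sexes in 29 and 27. Arctic and WT differed on water in 1059 genes of whole wells and 123 of neurons, and on PMX205 in 91 of neurons. DESeq2 called 3 genes between the genotypes in neurons on water and 4 on PMX205, where edgeR called 0. Of 182 alternatives to the counts and shares, 170 kept the result. Among single genes, Atp10b in neurons turned from -0.93 to 0.98 on the log2 scale in females alone.

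Wells of one number were not known to be paired, though within a genotype they shared a plate column. Their deviations from the group means correlated at -0.02 to 0.30 in whole wells and -0.03 to 0.41 in neurons, and with a replicate block 0 genes were called (269 and 505 at an unadjusted p under 0.05). This block joined same-numbered wells of both genotypes, which lay in different plate columns. The block moved the median of the 13 myelin genes in neurons from 0.89 to 1.29, with 10 in place of 2 at an unadjusted p under 0.05, and their summed level was higher in Arc-PMX in 6 of 6 same-numbered pairs. A well correlated best with its own number in 2 of 6 pairs in whole wells and 1 of 6 in neurons. Without 1 well at a time, the difference in neuron share, PMX205 minus water, ranged from -1.93 to 1.51 percentage points and that in median transcripts per nucleus from -1337 to -303, with a lowest permutation p of 0.229. Alternatives on rRNA-linked transcripts, broader neurons, the GABAergic share, robust spread and wells left out in pairs were chosen after seeing the data. With 6 mice per group and this depth, the 95% interval of the PMX205 effect lay within 1.5-fold in 68.6% of the genes of whole wells and 61.2% of those of neurons.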
